A study of Mus musculus with 8 samples.

Results

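The genes of the pancreatic islet hormones were examined in pancreas RNA of lean and obese mice. They were chosen by symbol and comprised Ins1, Ins2, Gcg, Sst, Ppy, Pyy, Iapp and Ghrl, and all 8 were present among the 15047 genes of the deposited expression table. RNA sequencing was performed on pancreata of 8 male mice, 3 C57BL/6 WT mice on a low-fat diet (LFD), 3 C57BL/6 WT mice on a high-fat diet (HFD, 60% of calories from fat) and 2 C57BL/6J; ob/ob mice, which lack functional leptin and were kept on standard chow. According to the methods of the study, the diets began at 4 weeks of age and lasted 10 weeks, and the sequenced glands came from mice transplanted orthotopically with mT organoids. These are neoplastic ductal organoids of mouse pancreas. The labels give pancreas as the tissue, with no word on a transplant, so host islets and any engrafted cells in a gland entered the same library. HFD and LFD differed by diet within 1 strain, whereas ob/ob differed from both in genotype and in chow, which cannot be told apart. Values are regularized log2 (rlog) read counts, in which 1 unit is a 2-fold difference.

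The endocrine pancreas consists of islets scattered through an exocrine gland made mostly of enzyme-secreting acinar cells. Beta cells release insulin, which lowers blood glucose, together with amylin, the product of Iapp, whereas alpha cells release glucagon, which raises it. Delta cells release somatostatin, which restrains both, and the remaining endocrine cells make pancreatic polypeptide, peptide YY or ghrelin. Leptin-deficient mice overeat, become hyperinsulinaemic and are known for enlarged islets. All of these hormones are made as prohormones that are cleaved and stored in dense-core granules.

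The labelled tissue was checked against acinar markers. All 26 acinar genes were measured, and their mean rlog value was 17.27, 17.43 and 17.71 in the LFD mice, 17.57, 15.47 and 13.54 in the HFD mice and 16.86 and 13.87 in the ob/ob mice. A pair of mice stood farthest apart in markers of other tissues. HFD replicate 3 had 13.31 for Fabp1 and 13.46 for Apoa1, genes of absorptive intestine and liver, against 3.60 to 4.28 for these genes in the other 5 WT mice, although Cdx1, Cdx2, Sis and Fabp2 were not analysed here. LFD replicate 2 had a mean of 5.60 over 6 lymphocyte markers, against 3.44 to 4.24 in the others. The ob/ob mice had 6.82 and 6.42 for Fabp1 and 6.51 and 6.29 for Apoa1, above those 5 WT mice, as they were for Ins1, Ins2, Ppy and Iapp. The mean of 6 stromal genes was 10.14 to 10.51 in LFD, 10.99 to 11.78 in HFD and 11.32 and 12.14 in ob/ob. At an unadjusted limma p under 0.05, 5 of the 6 were higher in ob/ob than in LFD, against 11.6% of all genes. In HFD 4 of the 6 were higher than in LFD at that level, against 11.5% of all genes. Between ob/ob and HFD none of the 6 reached it. The part of these tissues in the hormone values was not tested, and results are given with and without both mice.

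Sequences upstream of the start site are shown for 4 of the hormones, because Ins1 and Iapp had nearly parallel values across the mice whereas Gcg and Sst did not follow them. RefSeq promoter windows (build GRCm38.p6) matched 7 of the 8 genes, all but Ins2, and the 250 bases before the start are printed for Ins1 (chr19:52264047-52264296, plus strand), Iapp (chr6:142298175-142298424, plus strand) and Gcg (chr2:62483654-62483903, minus strand), with 30 bases of Sst (chr16:23890874-23890903, minus strand), where GENCODE places the transcript start farther upstream than RefSeq does. Capitals mark every match, on either strand, to TAAT (the homeodomain core bound by factors of the Pdx1 type), GCCATCTG (the E box described in insulin promoters), TGACGTCA (the cyclic AMP response element) and TATAAA (the TATA box).
Ins1: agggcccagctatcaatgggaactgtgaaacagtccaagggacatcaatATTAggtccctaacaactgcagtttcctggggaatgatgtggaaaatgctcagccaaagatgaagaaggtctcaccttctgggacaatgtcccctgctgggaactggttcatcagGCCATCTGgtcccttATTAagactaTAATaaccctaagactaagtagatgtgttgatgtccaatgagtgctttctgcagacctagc
Iapp: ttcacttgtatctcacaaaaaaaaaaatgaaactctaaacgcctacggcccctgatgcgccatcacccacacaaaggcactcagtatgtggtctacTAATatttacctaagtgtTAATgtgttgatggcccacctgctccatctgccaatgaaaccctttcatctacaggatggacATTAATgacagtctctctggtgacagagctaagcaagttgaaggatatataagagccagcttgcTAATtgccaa
Gcg: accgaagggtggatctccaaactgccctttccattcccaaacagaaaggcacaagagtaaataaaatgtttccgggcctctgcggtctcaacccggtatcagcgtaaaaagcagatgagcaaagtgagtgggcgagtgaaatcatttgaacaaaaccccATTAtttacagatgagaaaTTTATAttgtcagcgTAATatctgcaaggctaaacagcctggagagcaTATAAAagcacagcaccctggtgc
Sst: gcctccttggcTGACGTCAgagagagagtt
The Ins1 window held TAAT beginning 201, 71 and 61 bases before the start and the E box at 86 bases. In the Iapp window TAAT began at 154, 136, 74, 72 and 10 bases, of which the matches at 74 and 72 overlapped. Gcg had TAAT at 91 and 57 bases and TATAAA at 72 and 24 bases, and Sst had TAAT at 95 bases, outside the printed stretch, and the cyclic AMP response element at 48 bases. Over all 32851 RefSeq windows of this length, TAAT was present in 54.9%, GCCATCTG in 1.11%, TGACGTCA in 1.55% and TATAAA in 12.4%. Thus TAAT is common, whereas the E box of Ins1 and the cyclic AMP response element of Sst are infrequent. The Ppy window held only TATAAA, 31 bases before the start, and the windows of Pyy and Ghrl held none of these letters. These matches describe the windows and were not tested against the expression values.

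Averaged over the 8 mice, the insulin genes and Iapp lay near the top of the gland's transcriptome and Ghrl near the bottom. This mean rlog value was above that of 98.8% of genes for Ins2, 98.5% for Ins1, 97.7% for Iapp and 95.2% for Gcg. It was above that of 44.0% of genes for Ppy, 39.2% for Pyy, 25.8% for Sst and 1.85% for Ghrl. After division by the median length of their coding transcripts, the levels in LFD, as log2 per kb, were 12.93 for Ins2, 11.49 for Ins1, 11.08 for Iapp, 10.97 for Gcg, 7.57 for Ppy, 7.41 for Pyy, 6.45 for Sst and 3.42 for Ghrl. HFD and ob/ob had the same order. Within LFD, the neighbours Ins1 and Iapp, Iapp and Gcg, and Ppy and Pyy differed by less than the larger of their SDs. Within HFD this was the case for Ins1 and Iapp and for Ppy and Pyy, and within ob/ob only for Ins1 and Iapp. The position of Ins2 depends on its annotation, which holds 9 coding transcripts with a median of 478 bases.

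Both insulin genes had their highest value in ob/ob replicate 1. Ins1 (GRCm38, chromosome 19, 52264297 to 52265476, plus strand) is the rodent-specific insulin gene derived from a copy of Ins2. Its rlog values were 11.32, 12.26 and 11.16 in LFD, 11.51, 11.06 and 10.85 in HFD and 13.19 and 12.44 in ob/ob. Both ob/ob mice lay above all 6 WT mice, but ob/ob replicate 2 exceeded LFD replicate 2 by little. The ob/ob minus HFD difference was 1.68 ± 0.38 (SE), or 3.19-fold, and the ob/ob minus LFD difference was 1.24 ± 0.38, or 2.36-fold (limma adjusted p = 0.883 and 0.208). The difference between HFD and LFD was -0.44 ± 0.34 (limma adjusted p = 0.480), and these groups overlapped.

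Ins2 (chromosome 7, 142678656 to 142743381, minus strand), the counterpart of the insulin gene of other mammals, had rlog values of 11.62, 12.32 and 11.65 in LFD, 12.10, 11.35 and 11.11 in HFD and 13.84 and 12.42 in ob/ob. The ob/ob mice were again above all WT mice, and they differed from each other more than the LFD mice did. Here too ob/ob replicate 2 exceeded LFD replicate 2 by little, 12.42 against 12.32. The difference to HFD was 1.61 ± 0.46 (3.04-fold) and that to LFD was 1.27 ± 0.46 (2.40-fold), with limma adjusted p = 1.000 and 0.227. HFD minus LFD was -0.34 ± 0.41. Of the distinct 31-base words of the coding transcripts, Ins1 shared 4.55% with Ins2, and Ins2 shared 3.27% with Ins1. A small part of the reads could therefore be assigned to either gene. In bulk tissue, fewer cells of a type and less RNA per cell cannot be told apart, for these and all genes that follow.

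Iapp encodes amylin, which is secreted with insulin and slows gastric emptying. It lies on chromosome 6, 142298423 to 142303961, plus strand. The rlog values were 10.60, 11.38 and 10.50 in LFD, 10.88, 10.54 and 9.97 in HFD and 13.09 and 11.81 in ob/ob. Both ob/ob mice were above all WT mice. In ob/ob, Iapp was higher than in HFD by 1.98 ± 0.44 (95% interval 0.99 to 2.98, or 3.95-fold), the 6th highest difference of the 15047 genes, and higher than in LFD by 1.62 ± 0.44 (0.62 to 2.62, or 3.07-fold). Neither passed the test over all genes (limma adjusted p = 0.883 and 0.190). HFD minus LFD was -0.36 ± 0.39. The locus is overlapped on the opposite strand by Slco1a5, an organic anion transporter gene with 2.22 to 4.38 in the 8 mice, and whether the counting used strand is not given in the sources used here.

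**Figure D1:**
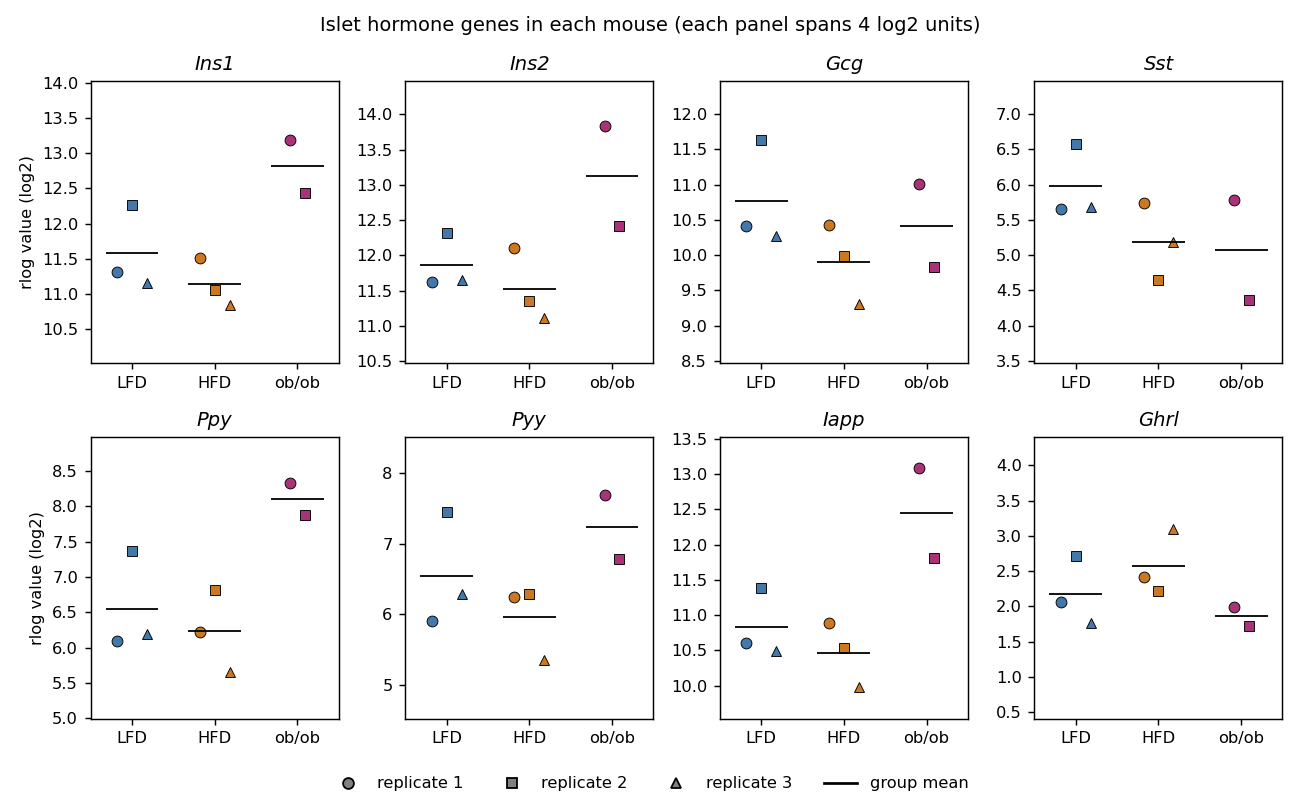
The rlog value (y axis, log2) of each islet hormone gene in every mouse, by group on the x axis, with marker shape for the replicate number and a line for the group mean; each panel has its own range of 4 log2 units. Both ob/ob mice lie above all WT mice for Ins1, Ins2, Ppy and Iapp, and LFD replicate 2 is the highest LFD mouse in all 8 panels.

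The polypeptide hormones of the islet are encoded side by side on the minus strand of chromosome 11, Ppy at 102099930 to 102101319 and Pyy at 102106676 to 102107832. Pancreatic polypeptide, the product of Ppy, restrains exocrine secretion. Ppy had rlog values of 6.09, 7.37 and 6.19 in LFD, 6.23, 6.81 and 5.65 in HFD and 8.33 and 7.87 in ob/ob. Both ob/ob mice were again the highest of the 8. The difference between ob/ob and HFD was 1.87 ± 0.46 (3.66-fold), and that between ob/ob and LFD was 1.55 ± 0.46 (2.92-fold), with limma adjusted p = 0.948 and 0.201. HFD minus LFD was -0.32 ± 0.41.

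Pyy encodes peptide YY, a satiety peptide of the gut that is also made in islets. Its rlog values were 5.91, 7.45 and 6.29 in LFD, 6.24, 6.29 and 5.35 in HFD and 7.68 and 6.78 in ob/ob. The ob/ob mice were above all HFD mice, but LFD replicate 2 lay between them. Pyy differed by 1.27 ± 0.51 between ob/ob and HFD (2.42-fold, 95% interval 0.10 to 2.44) and by 0.69 ± 0.51 between ob/ob and LFD (95% interval -0.48 to 1.86). Without HFD replicate 3 the difference to HFD was 0.97, with an unadjusted limma p above 0.05. The transcripts of Ppy and Pyy shared 0 words of 31 bases.

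Gcg, the glucagon gene (chromosome 2, 62474530 to 62483650, minus strand), did not follow the beta cell hormones. It had 10.41, 11.63 and 10.27 in LFD, 10.42, 9.98 and 9.31 in HFD and 11.004 and 9.83 in ob/ob. The 3 groups overlapped, and the highest value was that of LFD replicate 2. The difference was 0.51 ± 0.51 between ob/ob and HFD (95% interval -0.65 to 1.67), -0.35 ± 0.51 between ob/ob and LFD (-1.51 to 0.81) and -0.86 ± 0.46 between HFD and LFD (-1.90 to 0.17). Without LFD replicate 2 the last 2 values were 0.08 and -0.44. The difference between ob/ob and LFD also turned positive without ob/ob replicate 2 (0.23) and with the acinar mean as a covariate (0.30).

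Sst, which encodes somatostatin (chromosome 16, 23889573 to 23890958, minus strand), had rlog values of 5.66, 6.58 and 5.69 in LFD, 5.73, 4.65 and 5.19 in HFD and 5.79 and 4.36 in ob/ob. The ob/ob mice lay on either side of all HFD mice, so these groups overlapped. The differences were -0.12 ± 0.52 for ob/ob minus HFD, -0.90 ± 0.52 for ob/ob minus LFD and -0.78 ± 0.46 for HFD minus LFD. Their 95% intervals were -1.29 to 1.06, -2.08 to 0.27 and -1.83 to 0.27, which leave room for a difference in either direction.

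Ghrl encodes ghrelin, an appetite-stimulating peptide made mainly in the stomach and by a rare islet cell (chromosome 6, 113716119 to 113719880, minus strand). It had 2.07, 2.71 and 1.76 in LFD, 2.41, 2.21 and 3.10 in HFD and 1.997 and 1.72 in ob/ob. Both ob/ob mice were below all HFD mice, and the highest value was that of HFD replicate 3, the gland with the high Fabp1 and Apoa1. HFD minus LFD was 0.40 ± 0.34, and 0.13 without HFD replicate 3. The difference between ob/ob and HFD was -0.72 ± 0.38 (95% interval -1.59 to 0.15), and -0.46 without that mouse. At such low rlog values the transformation draws samples together, and the read counts behind them are unknown. Cck, a peptide of the upper intestine, also had its highest value in HFD replicate 3, at 3.69 against 1.23 to 2.27 in the other mice.

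Counted over the 8 genes, the higher values in ob/ob concerned the insulins, Iapp and Ppy. No gene of the table had an adjusted p under 0.05 by limma in any comparison (0% of the 15047 genes in each of the 3), so no hormone passed the test over all genes, and the counts that follow rest on unadjusted p values. Between ob/ob and HFD, 6 hormones had a higher and 2 a lower mean in ob/ob. Of these, 5 had an unadjusted p under 0.05, all higher in ob/ob (Ins1, Ins2, Ppy, Pyy and Iapp), against 2.28% of all genes higher and 1.63% lower, 588 genes in all. The same 5 did not overlap between the groups and were higher, and Ghrl did not overlap and was lower, against 7.92% and 5.42% of all genes. The median difference was 1.44 over the hormones and 0.01 over all genes.

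Between ob/ob and LFD, 5 hormones had a higher and 3 a lower mean. Ins1, Ins2, Ppy and Iapp had an unadjusted limma p under 0.05, all higher, against 11.6% of all genes higher and 7.18% lower, 2831 genes in all. These 4 also did not overlap between the groups, and 0 hormones were lower without overlap, against 24.1% and 21.8% of all genes. With 2 mice against 3, non-overlap is thus frequent over the table. The median difference was 0.96 over the hormones and 0.04 over all genes.

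Between HFD and LFD, 7 hormones had a lower and 1 a higher mean in HFD, with a median of -0.40 against 0.03 over all genes. None of the 8 had an unadjusted limma p under 0.05, whereas 11.5% of all genes did and were higher and 8.35% did and were lower (2985 genes). None was without overlap, against 12.9% of all genes higher and 12.3% lower. The size of these differences depended on which mice were included. Without HFD replicate 1, the HFD mouse with the highest acinar mean, 2812 genes but 0 hormones had an adjusted limma p under 0.05. When LFD replicate 2 and HFD replicate 3 were left out, 6 hormones had a higher and 2 a lower mean in HFD, with a median of 0.13. LFD replicate 2 was the highest LFD mouse for all 8 hormones. HFD replicate 3 was the lowest HFD mouse for Ins1, Ins2, Gcg, Ppy, Pyy and Iapp. Leaving out this pair therefore raises HFD minus LFD for these genes by construction and is no independent check. Without LFD replicate 2 alone only Ppy turned positive (0.088), and without HFD replicate 3 alone no lower mean did.

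Without LFD replicate 2 and HFD replicate 3, 5 hormones had an unadjusted p under 0.05 in ob/ob against HFD and 5 in ob/ob against LFD, where Pyy joined, all higher. Leaving out the highest LFD mouse raises ob/ob minus LFD by construction. Over all genes 1.84% and 10.6% were higher at that level in this fit. Iapp was then higher in ob/ob by 1.74 and 1.90, Ins1 by 1.53 and 1.58, Ins2 by 1.40 and 1.49 and Ppy by 1.58 and 1.96. Without ob/ob replicate 1, a single ob/ob mouse is left, which the fit assumes to vary like the LFD and HFD mice. In that fit Ins1 exceeded HFD by 1.30 and LFD by 0.86, and Ppy by 1.64 and 1.32, whereas Sst minus LFD was -1.61. On the remaining ob/ob mouse alone, Iapp exceeded HFD by 1.34 and LFD by 0.98, and Ins2 by 0.90 and 0.56. With both ob/ob mice the differences to LFD were larger, 1.62 for Iapp, 1.27 for Ins2, 1.24 for Ins1 and 1.55 for Ppy. A single mouse shows no spread within ob/ob, so only sizes are given, and they do not show that a difference held. The ob/ob mice differed in the acinar mean as well, 16.86 against 13.87, and with the acinar mean as a covariate Iapp was higher than in LFD by 2.23 and Ins2 by 1.95.

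**Figure D2:**
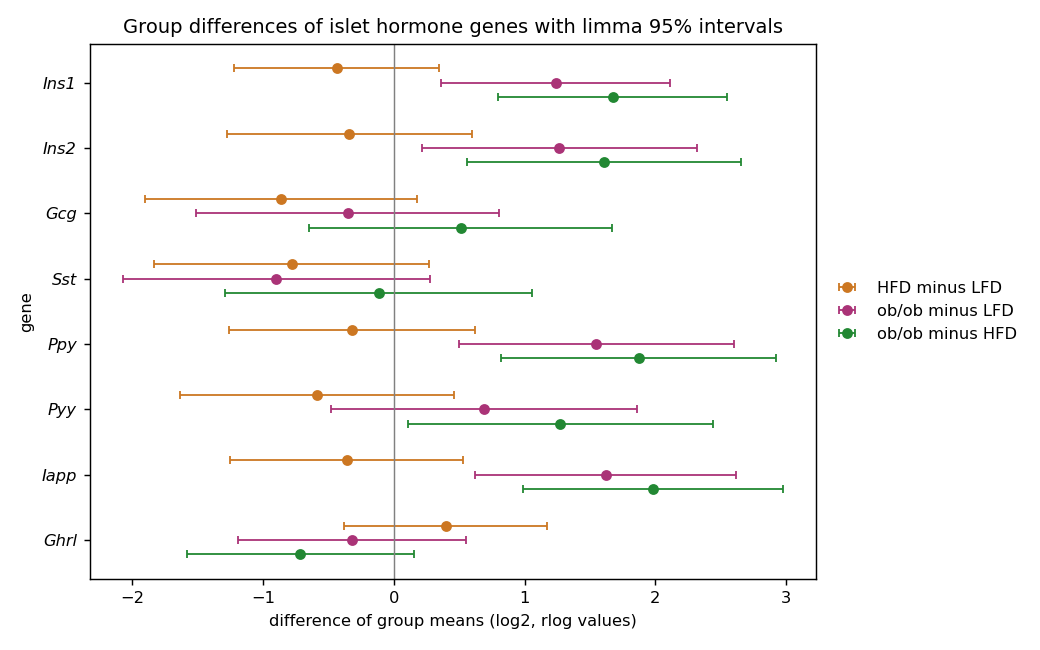
The difference of group means (x axis, log2 of rlog values) with its limma 95% interval for each hormone gene (y axis) in 3 comparisons, marked by colour. For ob/ob minus HFD the intervals of Ins1, Ins2, Ppy, Pyy and Iapp lie above 0, whereas for HFD minus LFD all 8 intervals include 0.

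The mixture of hormones was compared within each mouse, as the rlog value of a hormone minus that of Ins2. This asks whether the hormones moved with insulin and cancels any difference shared by all hormones of a gland. Gcg minus Ins2 was -1.20, -0.69 and -1.38 in LFD, -1.68, -1.36 and -1.80 in HFD and -2.83 and -2.59 in ob/ob. Sst minus Ins2 was -5.96, -5.74 and -5.96 in LFD, -6.37, -6.70 and -5.92 in HFD and -8.05 and -8.06 in ob/ob. For both, the ob/ob mice lay below all 6 WT mice. The ob/ob minus WT difference was -1.36 for Gcg, 0.390-fold, and -1.95 for Sst, 0.260-fold. Ins2 itself was higher in both ob/ob mice, so a hormone that stayed level also lies lower relative to it. The mean of Gcg itself was 10.42 in ob/ob, 9.91 in HFD and 10.77 in LFD. That of Sst was 5.07, 5.19 and 5.98.

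Iapp minus Ins2 ran from -1.22 to -0.81 in WT mice and was -0.75 and -0.61 in ob/ob, a difference of 0.37. Ghrl minus Ins2 ran from -9.89 to -8.01 in WT mice and was -11.8 and -10.7 in ob/ob, a difference of -1.95. For Gcg, Sst, Iapp and Ghrl the 2-sided exact permutation test gave p = 0.0357, the smallest that 28 regroupings of the 8 mice allow, and adjusted p = 0.0625 over 7 hormones, so none passed. The differences were smaller for Pyy (-0.46, exact p = 0.214), Ppy (0.27, exact p = 0.679) and Ins1 (0.02, exact p = 0.964). Without LFD replicate 2 and HFD replicate 3 the values were -1.30 for Gcg, -1.81 for Sst, 0.37 for Iapp and -1.70 for Ghrl, with a smallest possible exact p of 0.0667. Against Ins1 in place of Ins2, Gcg had -1.38, Sst -1.97, Ghrl -1.97 and Iapp 0.35 (exact p = 0.107). Ins1 was also higher in both ob/ob mice and varied with Ins2 (r = 0.961), so it is not an independent reference. The rlog transformation shrinks low genes more than Ins2, so values for Sst and Ghrl depend on it.

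**Figure D3:**
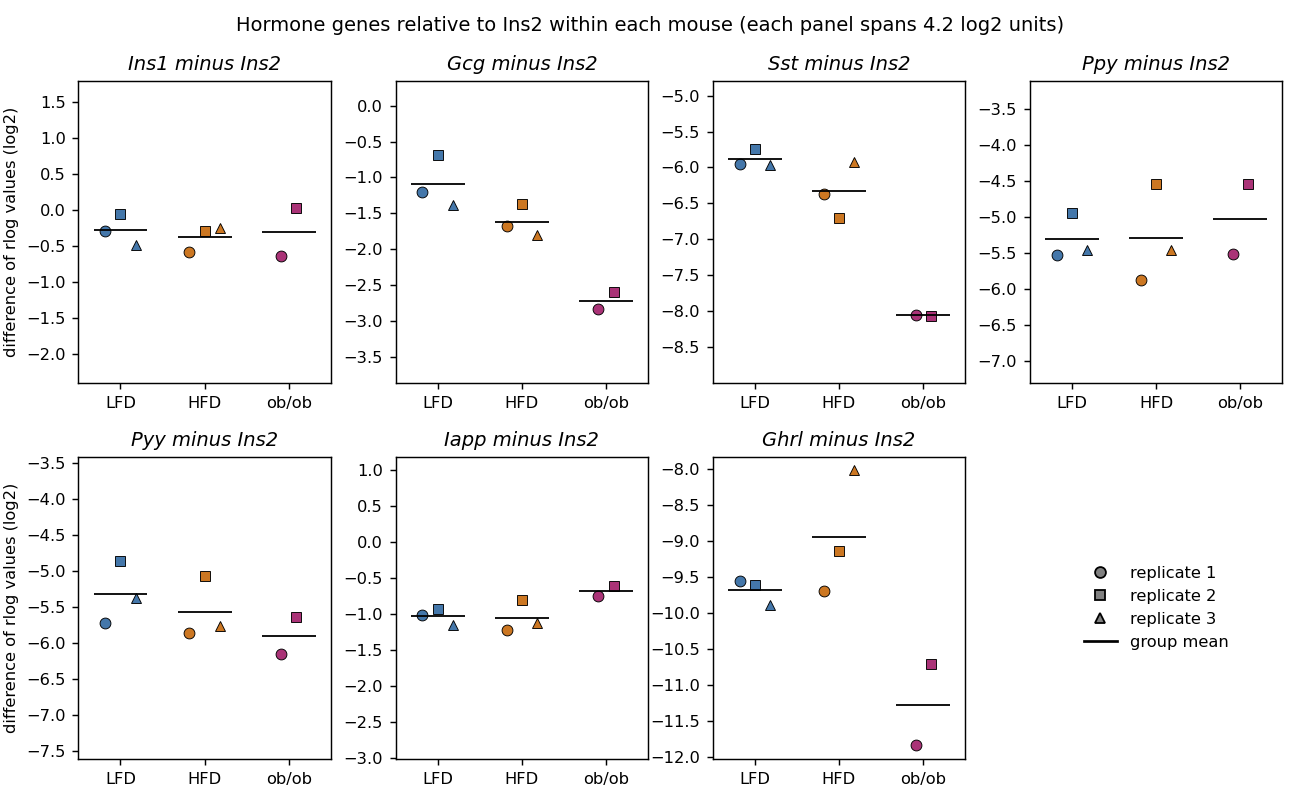
The rlog value of each hormone minus that of Ins2 in the same mouse (y axis, log2), by group on the x axis, with marker shape for the replicate number and a line for the group mean; each panel has its own range of 4.2 log2 units. Gcg, Sst and Ghrl lie lower in both ob/ob mice than in all 6 WT mice, whereas Ins1, Ppy and Pyy overlap.

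Genes that process prohormones or form the granule were counted next. Of 15 listed genes 12 were measured, and between ob/ob and HFD all 12 had a higher mean in ob/ob, 7 with an unadjusted limma p under 0.05 (2.28% of all genes higher) and 0 with an adjusted one, with a median of 1.504. The granin Scg2 had 10.02, 9.36 and 9.07 in HFD and 12.08 and 11.004 in ob/ob, a difference of 2.06 ± 0.39. Chga, another granin, differed by 1.84 and Pcsk2, the convertase that cleaves proinsulin and proglucagon, by 1.79. Between ob/ob and LFD, 11 had a higher mean, 7 with an unadjusted p under 0.05, against 11.6% of all genes higher, with a median of 1.26. Chgb differed by 2.07, Scg2 by 1.63 and Chga by 1.38. The gene with a lower mean was Ptprn2, which differed by -1.32, with both ob/ob mice below all LFD mice. It also differed by -1.63 between HFD and LFD. Its value was low in the mice with a low acinar mean, and the part of acinar tissue was not tested. For HFD and LFD 1 gene was higher and 1 lower at an unadjusted p under 0.05, near the 11.5% and 8.35% of all genes. Without LFD replicate 2 and HFD replicate 3, 6 and 7 genes had an unadjusted p under 0.05 in the comparisons of ob/ob with HFD and LFD, all higher, against 1.84% and 10.6% of all genes higher in that fit.

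All 15 listed beta cell factors were measured, and 14 had a higher mean in ob/ob than in HFD, 7 with an unadjusted limma p under 0.05, against 2.28% of all genes higher, with a median of 0.89. Among them Abcc8, the sulphonylurea receptor of the beta cell potassium channel, differed by 1.96, the transcription factor Pax6 by 1.56 and Ucn3, a peptide of mature beta cells, by 1.23. Against LFD 12 had a higher mean in ob/ob, 2 with an unadjusted p under 0.05, a share near the 11.6% of all genes higher, with a median of 0.50. Abcc8 differed by 1.35, Pax6 by 1.06 and Rfx6 by 0.98. In HFD 13 had a lower mean than in LFD, 1 with an unadjusted p under 0.05, near the 8.35% of all genes lower. Without the pair of mice, 4 had an unadjusted p under 0.05 in each comparison with ob/ob, all higher, against 1.84% of all genes higher than in HFD and 10.6% higher than in LFD.

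Receptors of the hormones were divided in direction. Of 19 listed receptors and accessory proteins 10 were measured, and Gcgr, Npy4r, Calcr, Ghsr and Sstr5 were among those not analysed here. Between ob/ob and HFD 5 had a higher and 5 a lower mean, with a median of -0.02. Sstr3, a somatostatin receptor, differed by 1.33 (the only one with an unadjusted limma p under 0.05, against 2.28% of all genes higher), Gipr, the receptor of an incretin, by 1.03, and Ramp3, a subunit of amylin receptors, by -0.74. Against LFD 8 had a lower mean in ob/ob, with a median of -0.27. The insulin receptor gene Insr had 10.39, 10.18 and 10.06 in LFD and 9.87 and 9.20 in ob/ob, a difference of -0.68. Ramp1, another subunit of amylin receptors, had -1.34, and these were the 2 of 10 with an unadjusted limma p under 0.05, against 7.18% of all genes lower. Ramp1 was lowest in HFD replicate 3 (7.32) and ob/ob replicate 2 (7.39), the mice with the lowest acinar means. Igf1r had -0.35. Without the pair of mice, 2 receptors were higher and 1 lower against HFD, and 1 higher and 1 lower against LFD, at an unadjusted p under 0.05, where 1.84% and 0.817% of all genes were higher and lower than in HFD and 10.6% and 5.06% than in LFD. The receptor of glucagon-like peptide 1, a product of Gcg, had 8.02, 8.05 and 7.64 in LFD and 7.66, 6.44 and 6.03 in HFD (Glp1r, -1.19). With Sstr3, it was 1 of 2 receptors lower with an unadjusted limma p under 0.05 in that comparison, against 8.35% of all genes, and its value was low in the mice with a low acinar mean.

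Of 12 other peptide hormones 5 were measured. The neuropeptide gene Gal differed between ob/ob and LFD by -3.02, Nts by 1.04 and Penk by -0.45, with 1 higher and 1 lower at an unadjusted limma p under 0.05, against 11.6% and 7.18% of all genes. Against HFD none of the 5 reached that level. For Gal the values were 7.398, 8.42 and 8.54 in LFD, 8.20, 5.76 and 4.15 in HFD and 5.96 and 4.23 in ob/ob, which followed the acinar mean in HFD and ob/ob, and the part of acinar tissue was not tested.

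**Figure D4:**
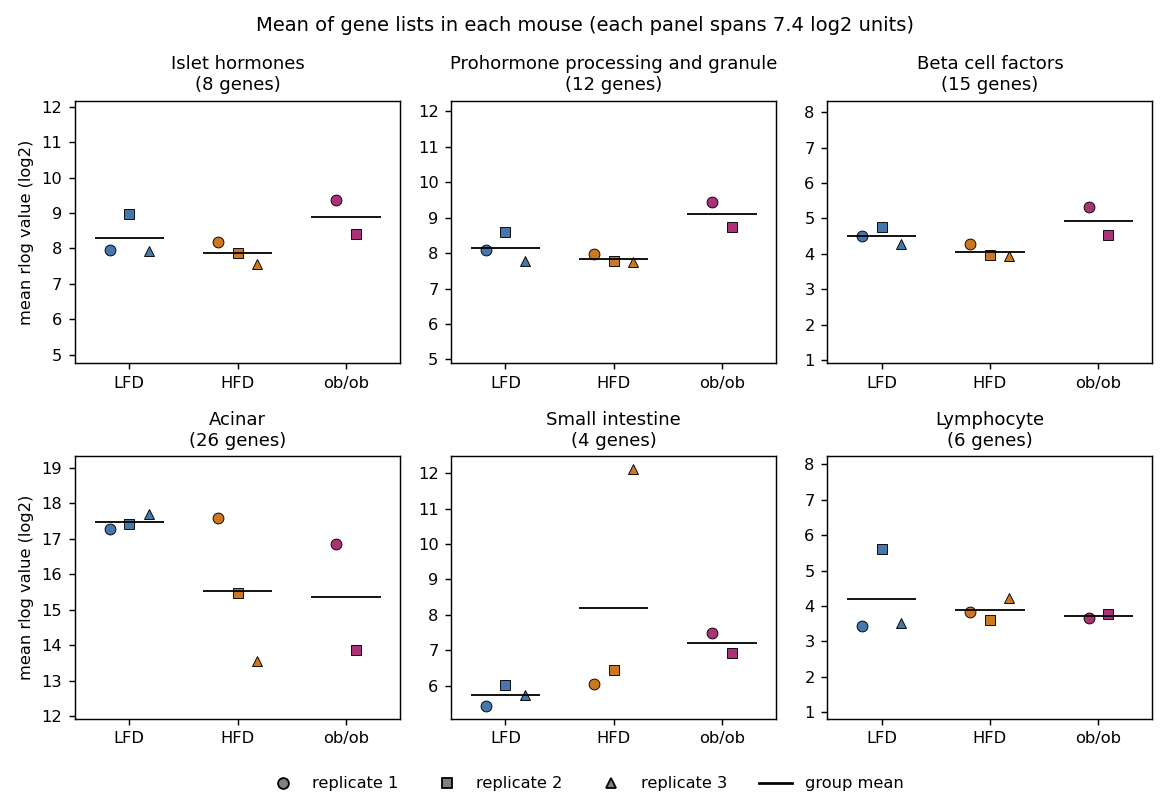
The mean rlog value (y axis, log2) over 6 gene lists in every mouse, by group on the x axis, with marker shape for the replicate number and a line for the group mean; each panel has its own range of 7.4 log2 units. HFD replicate 3 is highest for the small intestine genes, at 12.12, LFD replicate 2 for the lymphocyte genes, at 5.60, and ob/ob replicate 1 for the 3 islet lists.

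Likeness of pattern was described by Pearson's r over the 8 mice, with no test, since the mice share groups and tissue composition. Ins1 was most like Pcsk2 (0.993), 1700086L19Rik, Scg5, Iapp and Abcc8, and Iapp was most like Scg5 (0.992), Scg2, Nell1, Ins2 and Ins1. For Ins2 the nearest genes were Iapp (0.982), Scg2, G6pc2, Pnmal1 and Ucn3. Of the 5 nearest genes, 4 were thus on the hormone, granule or beta cell lists for each of Ins1, Ins2 and Iapp. For Ppy 1 of 5 was (Scg5), with Smyd4 (0.961) first. For Gcg (Zfp420, 0.953), Sst (Cracr2a, 0.961), Pyy (Vps39, 0.958) and Ghrl (Klf13, 0.960) none of the 5 nearest genes was on these lists. Those of Pyy were Vps39, Slc38a4, Kcnk16, Syt4 and Gjd2. The lists do not hold every islet gene, so a gene absent from them can still be one. Among the hormones themselves, r was 0.980 between Ins1 and Iapp, 0.961 between Ins1 and Ins2, 0.930 between Ins1 and Ppy, 0.594 between Ins1 and Gcg, 0.199 between Ins1 and Sst and -0.33 between Ins1 and Ghrl. The hormones of beta cells and the polypeptides therefore varied together over these 8 mice. Gcg and Sst (r = 0.799) varied more with each other than with insulin, although Gcg was about as near to Pyy (r = 0.793). Ghrl varied with none of the other hormones closely.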

How the data were processed

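The authors quantified paired-end reads of pancreas RNA with Salmon 0.11.3 against mouse transcripts (GRCm38.p6) after FastQC, and deposited log2 values per gene from the rlog transformation of DESeq2 1.22.2, which corrects for library size and draws low genes towards their mean. How genes were chosen for the table is not given in the sources used here. Sequencing depth per mouse is unknown, since no counts were used. The median rlog value was 7.09 to 7.25 per mouse.

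From these log2 values, group differences were fitted with limma 3.58.1 (R 4.3.3) on all 8 mice, with a mean for each group and a trend of variance on level, and p values were adjusted by Benjamini-Hochberg over 15047 genes. Each library carries its own mouse number in the labels, and p values measure the spread between these mice. Differences within a mouse were tested by 2-sided exact permutation. The fit was tested on simulated data. Coordinates, transcript lengths and overlaps came from GENCODE M21 (GRCm38). All 8 hormones were named, from each other list up to 3 genes with the smallest p in each comparison with ob/ob, and for likeness the 5 genes with the highest r. Ptprn2, Glp1r, Cck, Fabp1 and Apoa1 were added after their values were seen. The list of factors of other islet cells is not reported here. Members and lists were chosen with earlier results of these data known. Alternatives were a fit without trend, the compared groups alone, a mean rlog of at least 5, median centring, quantile normalization, array weights, a replicate block, an acinar covariate, Ins1 as reference and leaving out each mouse; leaving out LFD replicate 2 with HFD replicate 3 was chosen after seeing the data.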

Additional observations from a re-analysis of the deposited data

How the results depend on the processing

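Of 405 recomputed hormone differences, 385 kept their direction and stayed above an adjusted p of 0.05, 2 passed it and 18 changed sign. Several alternatives cannot alter a difference of group means. These are the fit without trend, the compared groups alone, the filter on mean rlog and leaving out a mouse of the third group. The 385 is therefore partly fixed by construction and does not measure robustness. Of 76 differences to Ins2, 72 kept their direction and 4 changed sign. With array weights, 4 hormones had an unadjusted p under 0.05 between HFD and LFD, Gcg (-0.95) and Sst (-1.36) passed the adjusted test (limma adjusted p = 0.0305 and 0.00604), 6656 genes passed it, Ppy became 0.050 and Ghrl -0.0092, and Sst in ob/ob against HFD became 0.36. With the acinar covariate, HFD minus LFD became 0.29 for Ins2 and 0.20 for Iapp, ob/ob minus LFD became 0.30 for Gcg, and 1 gene passed in each comparison with ob/ob. With only the compared groups, 1 gene passed for HFD and LFD and 38 for ob/ob and LFD. Leaving out LFD replicate 2 and HFD replicate 3 gave HFD minus LFD of 0.047 for Ins1, 0.093 for Ins2, 0.38 for Ppy, 0.17 for Pyy and 0.16 for Iapp, and ob/ob minus LFD of 0.076 for Gcg. For these hormones the upward shift follows from which mice were left out. On leaving out each LFD or HFD mouse, hormones with an unadjusted p under 0.05 numbered 0 to 1 (HFD and LFD), 3 to 5 (ob/ob and LFD) and 4 to 5 (ob/ob and HFD). Genes with an adjusted p under 0.05 then numbered 0 to 2812, 0 to 89 and 0. The 2812 and 89 came without HFD replicate 1. Leaving out an ob/ob mouse leaves a single one in that group, so no counts are given for it. On leaving out each of the 8 mice, ranges of the difference that crossed 0 were -0.61 to 0.088 for Ppy (HFD and LFD), -0.94 to 0.23 for Gcg (ob/ob and LFD), -0.077 to 1.10 for Gcg and -0.83 to 0.60 for Sst (ob/ob and HFD), and -0.31 to 0.35 for Ins1 and -0.21 to 0.75 for Ppy relative to Ins2. The cause was not tested. A mean rlog of at least 5 gave no value for Ghrl.

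With the replicate block, 0, 4 and 4 hormones had an unadjusted p under 0.05 in HFD against LFD, ob/ob against LFD and ob/ob against HFD. The numbers mark different animals, and same-numbered LFD and HFD mice deviated together with r = -0.06, 0.11 and -0.28, LFD and ob/ob mice with -0.10 and 0.13 and HFD and ob/ob mice with 0.59 and 0.30, so they were not treated as pairs.

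Group sizes of 3, 3 and 2 limit the precision, and the depth behind low genes such as Ghrl is unknown.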
